A study of Rattus norvegicus with 4 samples.

Results

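The nuclear genes of respiratory complexes I, III, IV and V, and of assembly factors of complex I, were followed in the cochlear lateral wall of the rat 1 and 3 days after the complex II inhibitor 3-nitropropionic acid (3-NP) was infused at the round window niche. Members were all probe sets with 1 gene symbol that began with Nduf, Uqcr, Cox4, Cox5, Cox6, Cox7, Cox8 or Atp5, plus Cyc1. There were 85 such probe sets for 81 genes among 15866 on the day 1 arrays, and 8 probe sets for 8 genes among 15276 on the day 3 arrays, 82 genes in all. A further 7 probe sets of day 1 carried several symbols, at least 1 of them from these families, and were left out. Mitochondrially encoded subunits were not analysed here.

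The 4 groups were 300 mM 3-NP at day 1, saline at day 1, 300 mM 3-NP at day 3 and saline at day 3, with 1 array each, so no difference has a replicate error and no p-value is given. All groups were female Sprague-Dawley rats of 8 to 10 weeks whose left ear was infused under pentobarbital and local lidocaine, with a piece of gelatin left on the niche. The labels' protocols also describe surgical destruction of the right cochlea. How many animals stand behind an array is unknown here. The day 1 pair and the day 3 pair were run on different array designs that share no probe set of these genes, so levels were compared only within a day.

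Respiratory complex I passes electrons from NADH to ubiquinone, complex III from ubiquinol to cytochrome c, and complex IV from cytochrome c to oxygen. Complex V, the ATP synthase, uses the proton gradient these pumps build. 3-NP blocks succinate dehydrogenase, complex II, which feeds electrons to the same ubiquinone pool. In the lateral wall, fibrocytes and the stria vascularis drive potassium back to the endolymph with sodium pumps and therefore depend on ATP.

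The labelled tissue was checked against markers. On the day 1 arrays all 8 spiral ligament fibrocyte markers present passed the signal filter described in the processing section. Their summed signal was 11750 in 3-NP and 17710 in saline. Of the 8, 4 were at least 2-fold lower relative to the median gene, against 6.47% of all 6533 measured genes. Vim, of the same list, went the other way, with 899.9 in 3-NP and 382.7 in saline, a relative log2 ratio of 0.79. Coch, the cochlin gene of these cells, had a signal of 5677 in 3-NP and 6548 in saline at day 3. Stria markers were also measured, although the protocol describes second-turn tissue without the stria and the sample labels name the upper basal turn. At day 1, 5 of 6 passed the filter, with a summed signal of 2320 in 3-NP and 3797 in saline. Of these 5, 3 were at least 2-fold lower, against the same 6.47%. At day 3, 4 were on the arrays and measured, with a summed signal of 1552 in 3-NP and 3312 in saline. Of these 4, 3 were at least 2-fold lower, against 8.18% of all measured genes, and Tyrp1 was higher. Bsnd passed the filter only in saline and Tyrp1 only in 3-NP, each where it is high. At day 1 the macrophage markers summed to 1106 in 3-NP and 274.9 in saline, of which Lgals3 gave 735.7 in 3-NP and 97.9 in saline. Cd14 had a relative log2 ratio of 1.54 and Cd68 of 0.34, and both passed the filter only in 3-NP. Csf1r had a relative log2 ratio of -0.06, and Ptprc, Itgam and Aif1 were below the floor in both arrays. At day 3 the macrophage markers on the arrays, Cd163 and Mrc1, summed to 43.55 in 3-NP and 85.66 in saline. In bulk tissue, fewer cells of a type and less RNA per cell cannot be told apart. The part of these shifts in the results that follow was not tested.

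Promoters are shown for 4 members on which the results turn. These are Cox7a1 and Ndufab1, the measured members lowest at day 1, Ndufa12, the lowest at day 3, and Uqcrc1, among the highest subunit genes at day 1. Each is the RefSeq window of 300 bases on build GRCr8, from 250 before to 50 after the start site, read 5′ to 3′ on the gene's strand. Capitals mark matches to the motifs listed after the sequences.
Cox7a1 (chr1:94568966-94569265, plus strand): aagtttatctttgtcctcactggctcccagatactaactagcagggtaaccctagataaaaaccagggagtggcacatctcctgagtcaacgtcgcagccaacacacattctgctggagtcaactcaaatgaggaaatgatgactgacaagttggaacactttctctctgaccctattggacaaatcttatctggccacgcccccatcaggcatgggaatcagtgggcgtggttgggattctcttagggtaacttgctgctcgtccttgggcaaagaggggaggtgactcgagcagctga
Ndufab1 (chr1:186089287-186089586, minus strand): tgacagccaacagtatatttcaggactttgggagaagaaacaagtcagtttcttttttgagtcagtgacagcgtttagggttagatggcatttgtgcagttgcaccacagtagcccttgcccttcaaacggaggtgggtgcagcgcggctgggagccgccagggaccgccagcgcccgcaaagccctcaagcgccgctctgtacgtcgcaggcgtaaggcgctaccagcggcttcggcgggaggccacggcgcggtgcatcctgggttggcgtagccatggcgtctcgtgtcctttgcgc
Ndufa12 (chr7:30658066-30658365, plus strand): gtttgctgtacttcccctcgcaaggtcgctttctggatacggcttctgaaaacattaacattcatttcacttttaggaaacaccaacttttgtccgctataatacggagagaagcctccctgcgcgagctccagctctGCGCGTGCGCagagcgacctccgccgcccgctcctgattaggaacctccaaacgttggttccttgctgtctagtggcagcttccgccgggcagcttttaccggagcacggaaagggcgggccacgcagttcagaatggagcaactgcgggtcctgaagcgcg
Uqcrc1 (chr8:118467973-118468272, plus strand): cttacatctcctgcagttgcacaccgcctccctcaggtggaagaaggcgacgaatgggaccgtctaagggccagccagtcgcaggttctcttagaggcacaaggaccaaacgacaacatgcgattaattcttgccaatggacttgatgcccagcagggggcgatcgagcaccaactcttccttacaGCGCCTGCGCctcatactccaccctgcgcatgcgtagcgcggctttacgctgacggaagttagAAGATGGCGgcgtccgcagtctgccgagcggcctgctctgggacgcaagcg
For nuclear respiratory factor NRF1, the motif searched on both strands was a consensus that allows any base at a middle position. The other motifs, also searched on both strands, were CCGGAAG for the ETS family, AAGATGGCG for YY1 and AAGGTCA for the oestrogen-related receptors (ERR). NRF1 and these factors are known to act at respiratory genes. The NRF1 consensus is not a palindrome, and both capitalised NRF1 stretches match it on the opposite strand. The Ndufa12 window held an NRF1 match beginning at -112 from the start site. The Uqcrc1 window held an NRF1 match at -64 and a YY1 match at -1. The Cox7a1 and Ndufab1 windows held none of these letters.

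A promoter window was found for 73 of the 82 member genes. The NRF1 letters were in 19.2% of the member windows, against 4.71% of all 27457 windows and 11.6% of those of genes measured at day 1. The ETS letters were in 27.4% of member windows, against 9.22% of all and 19.2% of measured genes. For YY1 the shares were 15.1%, 1.93% and 4.58% in the same order, and for ERR 13.7%, 4.37% and 2.37%. Each motif was thus more frequent among members than in either background. At day 1 the median ratio of subunit genes was taken with and without a match, and the differences were not tested. It was -0.46 in 12 genes with the NRF1 letters and -0.39 in 49 without, and for ETS -0.48 in 18 and -0.34 in 43. It was -0.23 in 10 genes with the YY1 letters and -0.41 in 51 without, and for ERR -0.54 in 10 and -0.36 in 51. A match is a description of letters and not evidence of binding.

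The members were among the brightest genes of the tissue. At day 1, 59 of the 85 probe sets lay in the top 10% of all probe sets in the 3-NP array, above a signal of 382, and 62 did so in the saline array, above 281.9. The highest signals were 3038 for Cox4i1 in 3-NP and 2678 for Cox8a in saline. Of the 81 genes, 75 passed the filter, 74 of them in both arrays. Of the 10 probe sets that did not pass, 5 were at the floor in both arrays.

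As deposited, the subunit signals of the day 1 arrays were almost level. Over the 68 measured subunit genes of the 4 complexes the log2 ratio, 3-NP over saline, had a median of 0.07, with 30 genes below 0 and 0 at -1 or less, whereas the median of all measured genes was 0.44 23.1% of them lay below 0 and 2.62% at -1 or less. Ratios are therefore given relative to the median gene unless called deposited. On that scale the subunit genes had a median of -0.37. Of the 68, 62 lay below the median gene, against 50% of all measured genes by construction, and 23 had a relative log2 ratio of -0.5 or less, against 20.1%. The genes thus sat in a narrow band, most of it below the median gene. No subunit gene reached 0.5, against 20.4% of all genes. Those 2-fold lower (-1 or less) were 2 of 68, under the 6.47% of all genes, and 0 were 2-fold higher, against 7.76%.

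**Figure D1:**
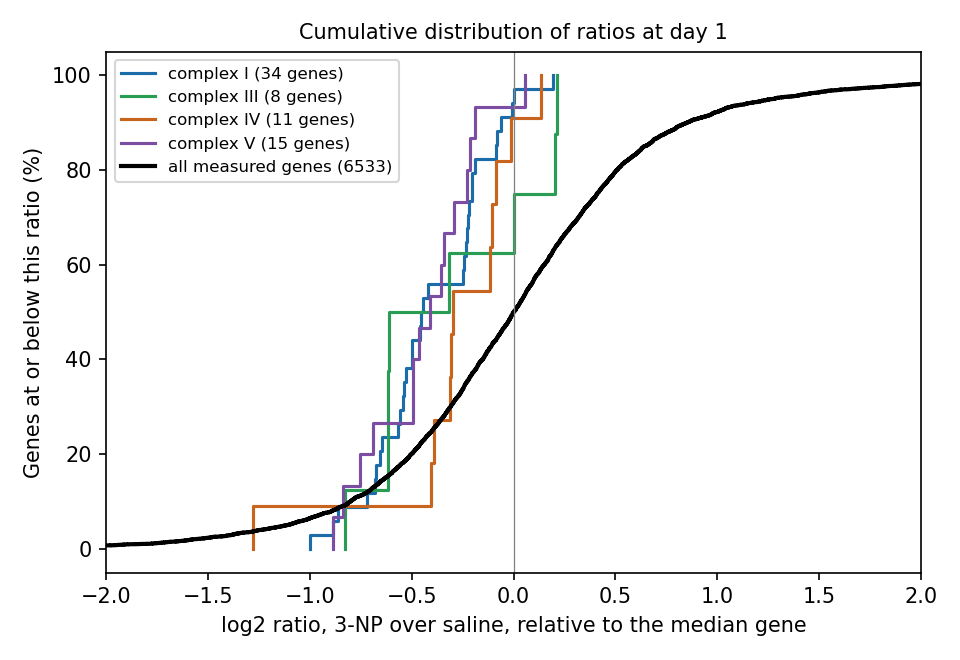
Cumulative share of genes (%) at or below each log2 ratio of 3-NP over saline at day 1, relative to the median gene, for each complex (coloured steps) and for all 6533 measured genes (black). Apart from Cox7a1 in complex IV, the complexes climb steeply between -1 and 0.2, left of the black curve over most of its height and without its tails.

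The spread of a single probe set gives a scale for these values. Genes with several probe sets gave an SD of 0.35 for 1 log2 ratio at day 1 (744 genes) and 0.47 at day 3 (805 genes), which covers probe sets and not animals. Of the 68 subunit genes at day 1, 35 were lower than the median gene by more than 0.35, 9 by more than 0.70, and 33 lay within 0.35 of it. The 7 probe sets with several symbols had a median of -0.25 and ranged from -0.49 to 0.20. Hybridisation spike-ins, RNAs added in equal amounts, had a median log2 ratio of 0.36 as deposited at day 1 (18 probe sets, SD 0.36) and -0.001 at day 3.

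**Figure D2:**
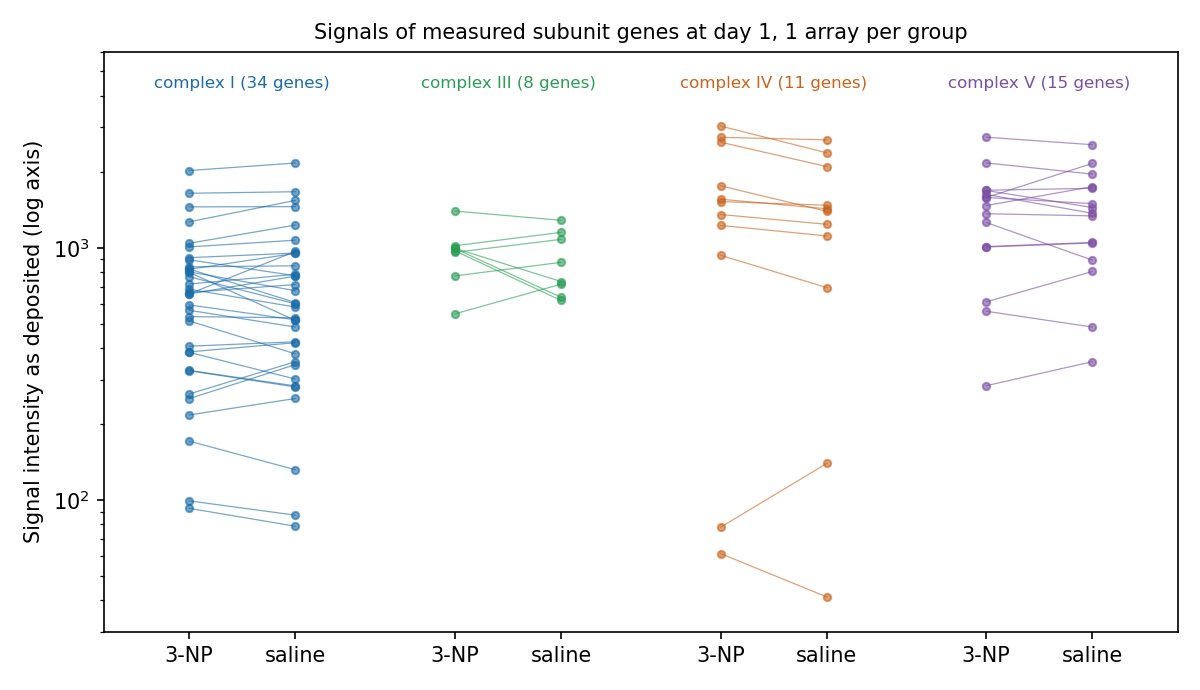
Signal intensity as deposited (log axis) of each measured subunit gene at day 1, in the 3-NP array and in the saline array, 1 array per group, with a line joining the values of a gene. Most lines are close to level in complexes I and V, and several of the complex III lines, Uqcr10 among them, meet at closely similar 3-NP values. Cox7a1 is the steep line among the dim genes of complex IV.

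Complex I had 34 measured subunit genes with a median relative log2 ratio of -0.45, of which 32 lay below the median gene and 14 at -0.5 or less. Their signals ranged from 92.68 to 2024 in 3-NP and from 78.71 to 2168 in saline. The lowest was Ndufab1, the mitochondrial acyl carrier protein that is also a subunit of the complex, with a signal of 656.2 in 3-NP and 968.1 in saline. Its relative log2 ratio of -1.0 was just at 2-fold, and its deposited ratio was -0.56. It was the only member of complex I at or beyond -1.

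The core subunits, which carry the flavin and most iron-sulfur clusters, ranged from level with the median gene to clearly below it. Ndufv1, which binds NADH, had 823.9 in 3-NP and 606.3 in saline, a relative log2 ratio of 0.00. Its neighbour Ndufv2, an iron-sulfur subunit, had 913.6 in 3-NP and 953.2 in saline, a ratio of -0.50. Ndufs1, the largest iron-sulfur subunit, had 252.3 in 3-NP and 344.4 in saline, a ratio of -0.89. These subunits form the tip of the matrix arm, and their ratios thus ranged from level to well below the median gene. Of the core subunits nearer to ubiquinone, Ndufs7 was at -0.08, Ndufs8 at -0.23 and Ndufs3 at -0.50. The median was -0.37 over 6 core and -0.45 over 28 accessory subunits, and this difference was not tested.

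All 11 measured Ndufb genes, whose products sit in the membrane arm, were below the median gene, from -0.22 for Ndufb6 to -0.72 for Ndufb4 (1267 in 3-NP and 1542 in saline), with a median of -0.46. The 12 Ndufa genes, Ndufab1 among them, had a median of -0.22 and a range that encloses that of the Ndufb genes. Ndufa7 was the highest gene of the complex, with 799.6 in 3-NP and 515.1 in saline, a ratio of 0.20. Ndufa6, a matrix arm subunit, was at -0.01 and Ndufa13, also known as GRIM-19, at -0.65. Ndufc1, a small membrane arm subunit, had 263.3 in 3-NP and 353.6 in saline, a ratio of -0.86, while Ndufc2 was at -0.23. A dimmer probe set of Ndufv3 gave -0.44, on the same side as the brighter one at -0.66.

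**Figure D3:**
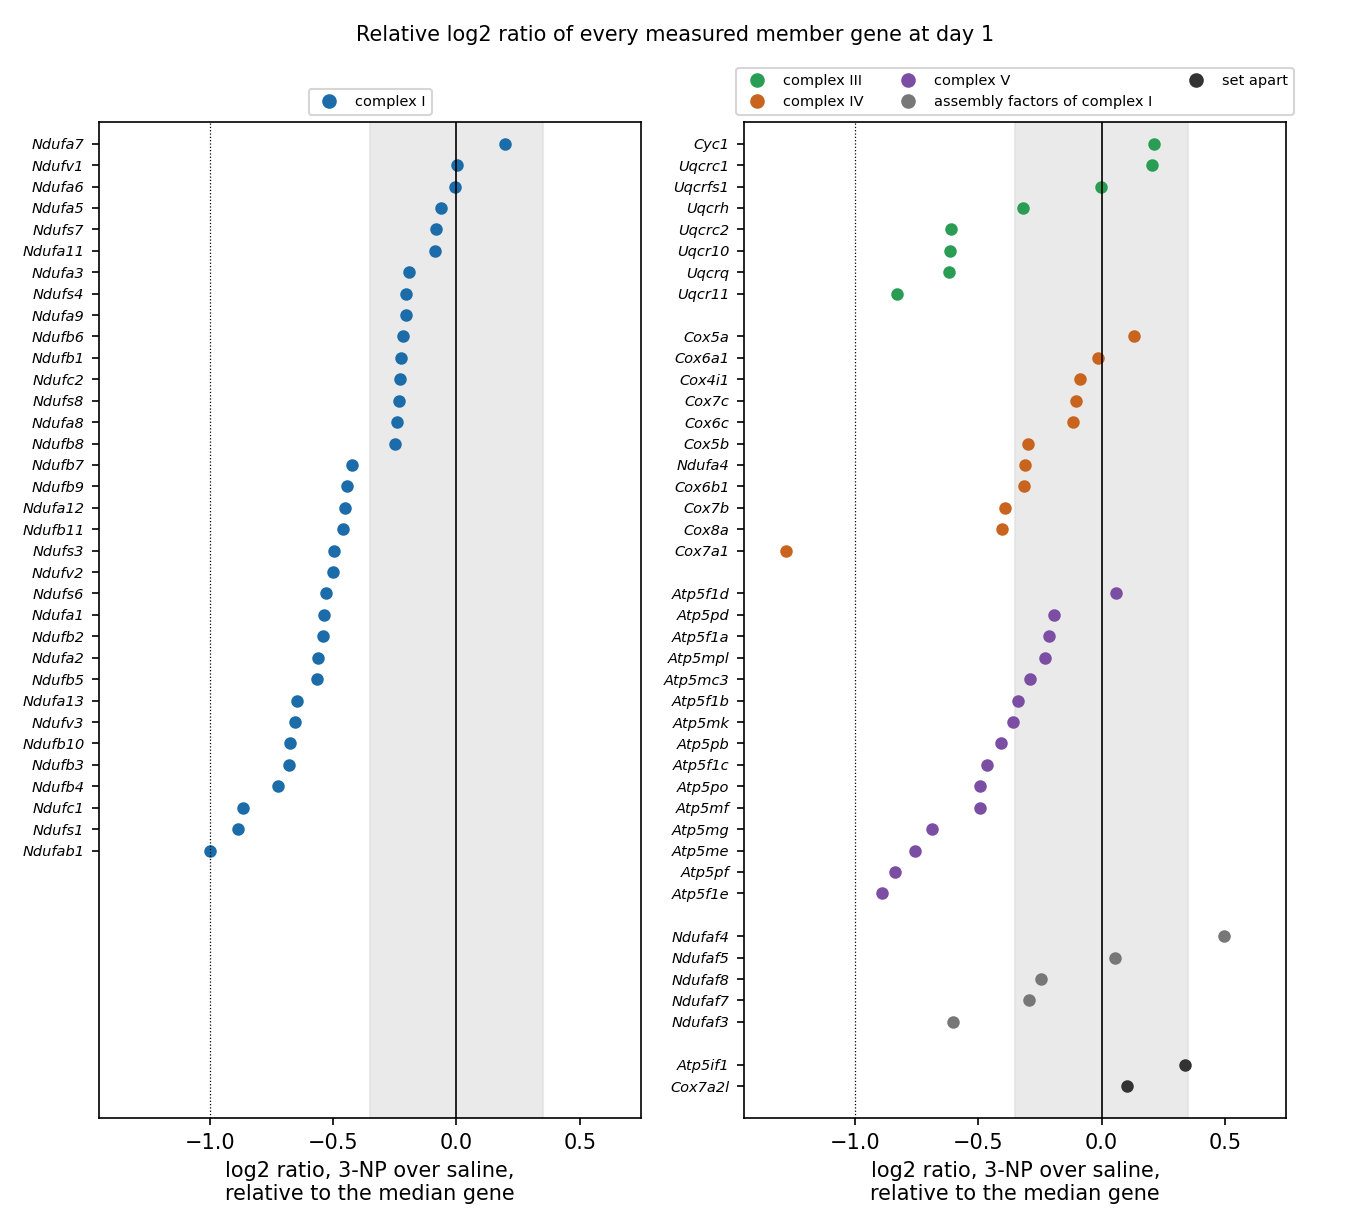
Relative log2 ratio of 3-NP over saline at day 1 (x axis) for every measured member gene (rows), coloured by complex, with complex I at left. The grey band is 1 SD of a single probe set (0.35) on each side of the median gene and the dotted line is 2-fold lower. Only Cox7a1 and Ndufab1 reach that line, and Ndufaf4 at 0.50 is the highest.

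The 8 genes of complex III had a median of -0.46. The proteins that carry electrons or form the core were Cyc1 (cytochrome c1), Uqcrfs1 (the Rieske iron-sulfur protein), Uqcrc1 and Uqcrc2. Cyc1 had 972.8 in 3-NP and 618.3 in saline, a relative log2 ratio of 0.21. Uqcrc1 had 993.5 in 3-NP and 636.2 in saline, a ratio of 0.20. Uqcrfs1 had 995.7 in 3-NP and 734.5 in saline, a ratio of 0.00. These 3 genes were thus level with or slightly above the median gene. As deposited they were at 0.65, 0.64 and 0.44, where the median of all measured genes was 0.44. Uqcrc2 was the exception, with 959.2 in 3-NP and 1080 in saline and a ratio of -0.61.

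The 4 small subunits of complex III were all lower. Uqcr11 had 547.1 in 3-NP and 717.5 in saline, a ratio of -0.83, the lowest of the complex. Uqcrq had 773.4 in 3-NP and 875.8 in saline, a ratio of -0.62. Uqcr10 had 1019 in 3-NP and 1151 in saline, a ratio of -0.62. Uqcrh, the hinge protein, was at -0.32. The median was 0.10 over the 4 core or catalytic genes and -0.62 over the 4 small ones, with Uqcrc2 of the first set among the values of the second. This difference was not tested.

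Complex IV, cytochrome c oxidase, was by its median nearest to the median gene among the 4 complexes, a ranking that was not tested. Its 11 measured genes had a median of -0.30, with 10 below the median gene and 1 at -0.5 or less. The common subunits lay in a narrow range, from -0.41 for Cox8a to 0.13 for Cox5a. Cox4i1, the regulatory subunit found in most tissues, had 3038 in 3-NP and 2379 in saline, a ratio of -0.09. Cox6a1 was at -0.01, Cox6b1 at -0.31 and Cox7b at -0.39. Ndufa4, named for complex I but known as a subunit of complex IV and counted here with it, was at -0.31. The single-symbol probe set of Cox5a was dim, with 61.33 in 3-NP and 41.28 in saline, and passed the filter only in 3-NP.

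Cox7a1, the heart and muscle isoform of its subunit, had the lowest ratio of the members that passed the filter at day 1. Its signal was 78.01 in 3-NP and 139.7 in saline, a relative log2 ratio of -1.28, or 2.43-fold lower, and it remained below 0 as deposited, at -0.84. The other muscle isoforms, Cox6a2 and Cox8b, were at the floor in both arrays, so no fold is given. Measured skeletal muscle markers lay on the other side of the median gene by their brightest probe sets. Of 17 on the array 4 were measured, Myh1, Myh2, Myl1 and Mybpc2, with ratios from 0.09 to 0.80. Myl1 passed the filter only in 3-NP, where it is high. Of the markers that failed the filter, only Ckm at -0.71 and Tnni2 at -0.23 were above the floor in both arrays. Acta1 and Mb were at the floor in both arrays. The summed signal over the list was 1060 in 3-NP and 666.6 in saline. The part of these markers in the Cox7a1 value was not tested. Brown fat also expresses Cox7a1; its marker Ucp1 was at the floor in both arrays and Cidea was at 0.11. Cox4i2, the isoform linked to low oxygen, had 31.28 in 3-NP and 13.72 in saline, under the floor, so it was at least 1.35-fold higher but failed the filter. Cox6b2, the testis isoform, was at the floor in both arrays.

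Complex V had 15 measured genes with a median of -0.41, of which 14 lay below the median gene and 4 at -0.5 or less. Of the F1 head, Atp5f1b, the catalytic beta subunit, had 2744 in 3-NP and 2562 in saline, a ratio of -0.34. Atp5f1a, the alpha subunit, was at -0.21 and Atp5f1c, the gamma subunit of the rotor, at -0.46. The remaining F1 genes were the extremes of the complex. Atp5f1e, the epsilon subunit, had 1582 in 3-NP and 2161 in saline, a ratio of -0.89. Atp5f1d, the delta subunit, had 1260 in 3-NP and 892.8 in saline, a ratio of 0.06. The central stalk partners delta and epsilon thus lay 0.95 apart.

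In the peripheral stalk Atp5pf, coupling factor 6, had 610.4 in 3-NP and 805.6 in saline, a ratio of -0.84, and Atp5pd was at -0.19. The other stalk genes Atp5po, the oligomycin sensitivity protein, and Atp5pb were at -0.49 and -0.41. The membrane accessory genes ranged from -0.76 for Atp5me, which helps to form dimers, to -0.23 for Atp5mpl. The dimmer Atp5me probe set was at the floor in 3-NP and at least 1.48-fold lower. Atp5mc3, a gene of the c ring, was at -0.29. Atp5if1, the inhibitor that stops ATP hydrolysis, stood apart from the subunits with 474 in 3-NP and 276.4 in saline, a ratio of 0.34, and a dimmer probe set with saline at the floor was at least 1.23-fold higher.

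Of the Ndufaf assembly factors of complex I, 5 were measured at day 1, with a median of -0.24 and 3 below the median gene. Ndufaf4, which acts early in assembly, was the highest of the members that passed the filter, with 91.5 in 3-NP and 47.82 in saline, a ratio of 0.50. Its partner Ndufaf3 went the other way, with 154.9 in 3-NP and 173.5 in saline, a ratio of -0.60. Ndufaf5 was at 0.06, Ndufaf8 at -0.24 and Ndufaf7 at -0.30. Cox7a2l, which joins complexes III and IV into supercomplexes, had 891 in 3-NP and 612.5 in saline, a ratio of 0.10.

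Among assembly factors of complexes III, IV and V, 20 genes were measured at day 1, with a median of -0.16, and 0 were 2-fold lower or higher, against 6.47% and 7.76% of all measured genes. Below -0.5 were Atpaf1, a chaperone of the ATP synthase (-0.66), Coa5 (-0.60) and Cox17, a copper chaperone (-0.54). The highest was Uqcc1, an assembly factor of complex III, at 0.39, and 0.79 by another probe set. The complex II genes had a median of -0.35 (Sdha, Sdhb, Sdhc and Sdhd), close to the subunit medians of the other complexes, and this likeness was not tested.

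Mitochondrial genes outside the respiratory chain lay on both sides of the median gene. The 20 measured genes of this list had a median of 0.09, with 9 below 0. At 0.5 or more were 4, against 20.4% of all measured genes, and at -0.5 or less was 1, against 20.1%. Tomm40, the import channel of the outer membrane, had 178.6 in 3-NP and 67.08 in saline, a ratio of 0.97. The matrix chaperone Hspa9 was at 0.71 and, by another probe set, 0.65. Tomm20, an import receptor, was at 0.62 and 0.28. The citrate synthase gene Cs gave 0.16, 0.22 and 0.10 by its 3 probe sets, and Slc25a4, an ATP/ADP carrier, was at -0.46. Mfn1, which fuses outer membranes, was at -0.64, and Vdac2, an outer membrane channel, at -0.43. The difference between this list and the subunit genes was not tested.

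At day 3, 8 probe sets of as many genes were on the arrays, mostly dim. Only Uqcrc2 in 3-NP, and Uqcrc2 and Ndufa12 in saline, were in the top 10% of probe sets. Of the 8, 6 passed the filter, 3 of them in both arrays. The median of 3-NP over saline among all 3972 measured genes was 0.10 as deposited. Of the 6 measured members, 2 were 2-fold lower relative to the median gene, against 8.18% of all genes, and 2 were 2-fold higher, against 9.21%. At -0.5 or less were 3 of the 6, against 22.5%. As deposited, 4 of the 6 were below 0, against 44.3%, and 1 was 2-fold lower, against 6.42%. A probe set that passed in only 1 array had to be bright there, so these counts are a description.

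Ndufa12, a matrix arm subunit of complex I, had 35.24 in 3-NP and 111.6 in saline at day 3, a relative log2 ratio of -1.76, or 3.39-fold lower. It was the largest ratio among the members that passed the filter on either day, and it passed in both arrays. On the day 1 arrays another, brighter probe set of Ndufa12 was at -0.45. Uqcrc2, the core protein of complex III, had 185.2 in 3-NP and 245.3 in saline at day 3, a ratio of -0.51, close to its -0.61 at day 1. Ndufa7 had 35.69 in 3-NP and 39.98 in saline, a ratio of -0.26.

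The remaining day 3 members were below the filter in at least 1 array. Atp5f1c had 17.64 in 3-NP and 35.27 in saline, a ratio of -1.10. Atp5po had 31.45 in 3-NP and 13.91 in saline, a ratio of 1.08. Ndufaf7, a methyltransferase needed for complex I assembly, had 42.54 in 3-NP and 18.5 in saline, a ratio of 1.10. All 3 passed the filter in only 1 array, the one where each is high, Atp5f1c in saline and Atp5po and Ndufaf7 in 3-NP. Ndufaf1 was at the floor in saline and at least 1.82-fold higher in 3-NP, and Ndufa9 had 14.69 in 3-NP and 17.59 in saline, and both failed the filter.

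**Figure D4:**
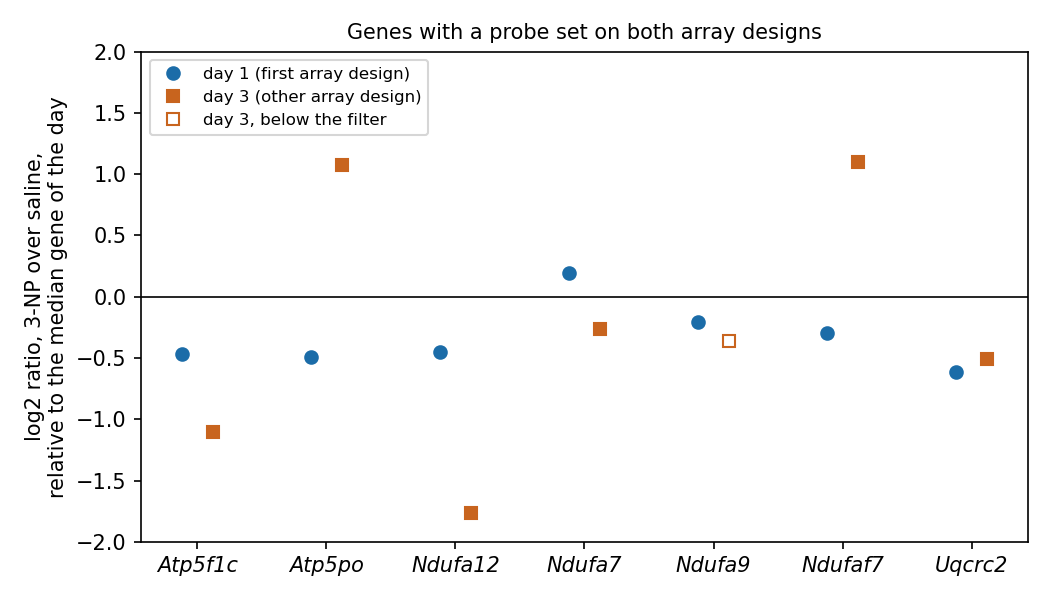
Relative log2 ratio of 3-NP over saline for the 7 member genes with a probe set on both array designs, at day 1 (circles) and day 3 (squares, open where the probe set failed the filter). Uqcrc2 is near -0.5 on both days, Ndufa12 and Atp5f1c are lower at day 3, and Atp5po, Ndufa7 and Ndufaf7 lie on opposite sides of the median gene. At day 3 Atp5f1c passed the filter only in saline, and Atp5po and Ndufaf7 only in 3-NP, each where it is high.

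Regulators of respiratory genes were measured mainly at day 3. Ppargc1a, the coactivator that drives mitochondrial biogenesis, had 121.6 in 3-NP and 249.1 in saline, a ratio of -1.13, and 86.75 in 3-NP and 214 in saline by another probe set, a ratio of -1.40. Its relatives went the other way. Pprc1 had 130.8 in 3-NP and 26.42 in saline, a ratio of 2.21. Ppargc1b had 35.23 in 3-NP and 15.61 in saline, a ratio of 1.07. Ppargc1b passed the filter only in 3-NP, where it is high, and the count that follows includes it. Of the 9 measured regulators 2 were 2-fold higher, against 9.21% of all measured genes, and 1 was 2-fold lower, against 8.18%. Nrf1 was at 0.86 by its brighter probe set, but a dimmer one was at the floor in 3-NP, so that its value of -1.03 is only a bound, and Gabpa, an ETS factor, was at -0.75. At day 1, 4 regulators were measured, and Ppargc1a was at the floor in both arrays. Esrrb, an oestrogen-related receptor whose mutation causes deafness in humans, had 240.1 in 3-NP and 471.1 in saline, a ratio of -1.41. Tfam, which packages mitochondrial DNA, was at 0.58 and Gabpb1 at 0.63.

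**Figure D5:**
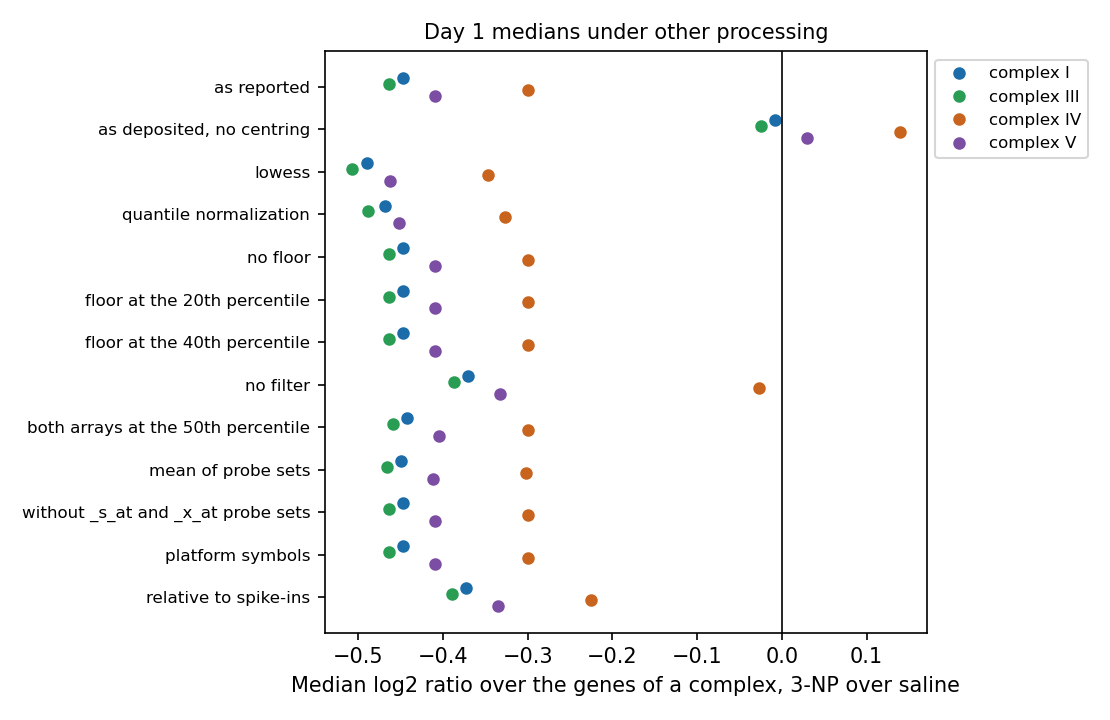
Median log2 ratio of 3-NP over saline at day 1 for each complex (coloured points) as reported and under each other way of processing (rows). As deposited the medians lie between -0.03 and 0.14. Under the other settings they lie between -0.51 and -0.23, except complex IV at -0.03 with no filter.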

How the data were processed

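Biotin-labelled cRNA was read on 4 Affymetrix arrays, per the labels' protocols. The authors deposited 1 linear signal intensity for each probe set, for which the submitters' processing notes name MAS5. The sources name no scaling target and no detection calls. Platform symbols were replaced by RefSeq's (GRCr8) where the gene identifier matched.

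From these, signals below an array's 30th percentile (22.0 in 3-NP and 17.1 in saline at day 1, 9.85 and 9.22 at day 3) were set to it. A probe set was kept if it reached its array's 50th percentile in at least 1 array of the pair. Its log2 ratio was taken, each gene was represented by its brightest kept probe set, and the median over all measured genes was subtracted (6533 and 3972 genes). Median signals were 60.7 in 3-NP and 44.9 in saline at day 1. Fold changes of at least 2 (a log2 of 1) and a log2 of 0.5 were counted beside all measured genes. With 1 array per group there was no test, and the number of arrays limits the precision. Ratio recovery was tested on simulated data. Members, lists, roles and motifs were chosen with earlier results of these data known. Named genes were members 2-fold apart, the 3 highest and 3 lowest per complex, core and isoform subunits, those on both designs and those whose probe sets lay on opposite sides of the median gene by at least 0.5 each. Other members and listed genes are named beside their families after their values were seen. Alternatives changed the centring, normalization (lowess, quantile), floor, filter, probe set choice and names. Python 3.11.15 and pandas 2.3.3 were used.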

Additional observations from a re-analysis of the deposited data

Results flagged for a closer look

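Of the 6 member genes that passed the filter on both array designs, 3 lay on opposite sides of the median gene on the 2 days, each with 1 pair of arrays and different probe sets per day. Atp5po was at -0.49 at day 1 and 1.08 at day 3. Ndufaf7 was at -0.30 at day 1 and 1.10 at day 3. Ndufa7 was at 0.20 at day 1 and -0.26 at day 3, both within the probe set SD of that day. At day 3 Atp5po and Ndufaf7 passed the filter only through the 3-NP array, where they are high, and neither is kept when both arrays must pass. The differences between days were not tested, and day and array design cannot be told apart.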

How the results depend on the processing

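Centring moved the day 1 medians most. Without it complexes I and III stayed just below 0, and complexes IV and V, all subunits and the Ndufaf genes were above 0. As deposited, without centring, the day 1 medians were -0.0086 for complex I, -0.025 for complex III, 0.14 for complex IV, 0.0294 for complex V, 0.0652 for all subunits and 0.20 for the Ndufaf genes. The cause is the shift of 0.44 of the median gene. As deposited, 0 members were 2-fold lower and 2 were at -0.5 or less at day 1, and 1 was 2-fold lower at day 3. Relative to the spike-ins, chosen after seeing the data, 1 member was 2-fold lower on each day. At day 1, 1 member was 2-fold lower and 1 higher with no filter, 1 lower with both arrays above the filter and 1 lower without the _s_at and _x_at probe sets. At day 3, 1 member was 2-fold lower, 0 higher and 1 at -0.5 or less with both arrays above the filter, which left 3 genes, and the median of complex I was -0.36 with no filter, which added a gene. Of 488 values of named genes under other settings, 453 moved by less than the probe set SD, and the other 35 were day 1 values as deposited. No paired analysis was possible because each group has 1 array. Dim signals limit day 3, where 3 of 8 probe sets passed the filter in both arrays.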

Other observations

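Genes that respond to low oxygen and act beside the respiratory chain went both ways at day 1. Ldha, lactate dehydrogenase A, had 2053 in 3-NP and 531.5 in saline, a relative log2 ratio of 1.51. Higd1a, a small protein that binds complexes III and IV, had 1038 in 3-NP and 577.7 in saline, a ratio of 0.41, but a dimmer probe set gave -0.43. Lonp1, the matrix protease that degrades complex IV subunits, was at 0.34. Bnip3 and Bnip3l, receptors for mitophagy, were at -0.20 and -0.68, and another Bnip3l probe set gave -0.52. Ndufa4l2, the paralogue of Ndufa4 induced by low oxygen, lay under the floor in 3-NP and in saline. Of the 5 measured genes of this list, 1 was 2-fold higher and 0 lower, against 7.76% and 6.47% of all measured genes.

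The pseudogene Cox6c-ps1 had 45.93 in 3-NP and 6.54 in saline, under the floor, so it was at least 1.98-fold higher relative to the median gene, although it failed the filter, while Cox6c itself had 2622 in 3-NP and 2098 in saline, a ratio of -0.12. Across the 68 subunit genes the relative ratio was not related to brightness: Pearson's r with mean log2 signal was -0.001 and Spearman's rho -0.04, as a description over genes that share both arrays.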
